A study of Caenorhabditis elegans with 8 samples.

Results

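The yolk genes of Caenorhabditis elegans examined here are the 6 vitellogenin genes vit-1, vit-2, vit-3, vit-4, vit-5 and vit-6, together with rme-2, the yolk receptor gene. They were taken by name, as 7 of the 19971 protein-coding genes of the 6 nuclear chromosomes in the gene table. Each summit (the highest point of a called peak) inside one of these genes or within 2000 bp of either end was recorded. The study precipitated SKN-1, a transcription factor related to mammalian Nrf2, from whole animals and asked how the binding profile of a gain-of-function form compares with that of the wild-type form. The GF group carried SKN-1gf(lax188) tagged with GFP and the WT group carried the wild-type protein with the same tag, and both were grown at 20°C on OP50 bacteria. Each group had 2 samples precipitated with a Chromotek GFP reagent, which gave the peak lists GF 1, GF 2, WT 1 and WT 2, while the other 4 of the 8 samples, labelled as without antibody, were not analysed here. The labels give neither age nor stage nor the kind of GFP construct.

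Vitellogenins are lipid-binding yolk proteins that are made in the intestine of the adult hermaphrodite, secreted into the body cavity and taken up by growing oocytes. RME-2, a member of the low-density lipoprotein receptor family, takes them up at the oocyte surface by endocytosis. The genes vit-1 to vit-5 encode closely related long proteins, with vit-1 and vit-2 most like each other and vit-3, vit-4 and vit-5 forming a group of near-identical copies. The gene vit-6 encodes a more diverged precursor that is cleaved into smaller yolk proteins. Near-identical copies may share sequencing reads, and the sources used here do not say how such reads were handled, so a missing peak at such a copy is a missing call and not a measurement of absent binding.

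GF 1 held 25007 peaks, GF 2 905, WT 1 15943 and WT 2 29541, and median fold enrichment was between 1.46 and 1.55 in the 4 lists. The lists hold no read counts, so depth is unknown, and GF 2 stands apart by its length. In the WT 2 list each peak is named as if from replicate 1, and the sample record decided which library it is. The labels do not say whether replicates were separate cultures, and the spread between lists may be technical. Peak positions are those of the deposited lists, for which the processing notes name build ce10. Gene positions came from a table of assembly WBcel235 with no strand and no exons, so a place along a gene is given from its left end, the end with the lower coordinate, and neither a start site nor an exon or intron could be assigned.

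The vitellogenin vit-6 lay under one of the widest peaks of every list, vit-2 carried several separate peaks in each list, which in GF 1 reached a fold of 3.45 and in GF 2 no more than 1.68, and vit-4 carried no peak. A summit was recorded at 6 of the 7 genes in GF 1, at 2 in GF 2, at 4 in WT 1 and at 5 in WT 2. The same window held a summit for 75.6% of all protein-coding genes in GF 1, 7.06% in GF 2, 58.6% in WT 1 and 81.8% in WT 2. Among the 3084 protein-coding genes between 3148 and 5303 bp long, the range of these 7 genes, the shares were 82.1% in GF 1, 7.36% in GF 2, 65.9% in WT 1 and 86.6% in WT 2. Having a summit was therefore common in the 3 long lists, and the counts of yolk genes there were near the background. With gene bodies alone, 6 of the 7 genes had a summit in GF 1, 2 in GF 2, 4 in WT 1 and 4 in WT 2, beside 49.2%, 2.65%, 34.2% and 55.4% of all protein-coding genes and 63.4%, 2.85%, 44.4% and 69.5% of those in the length range. Both vit-2 and vit-6 had a summit in all 4 lists, as did 5.65% of all protein-coding genes and 6.16% of those in the length range.

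**Figure D1:**
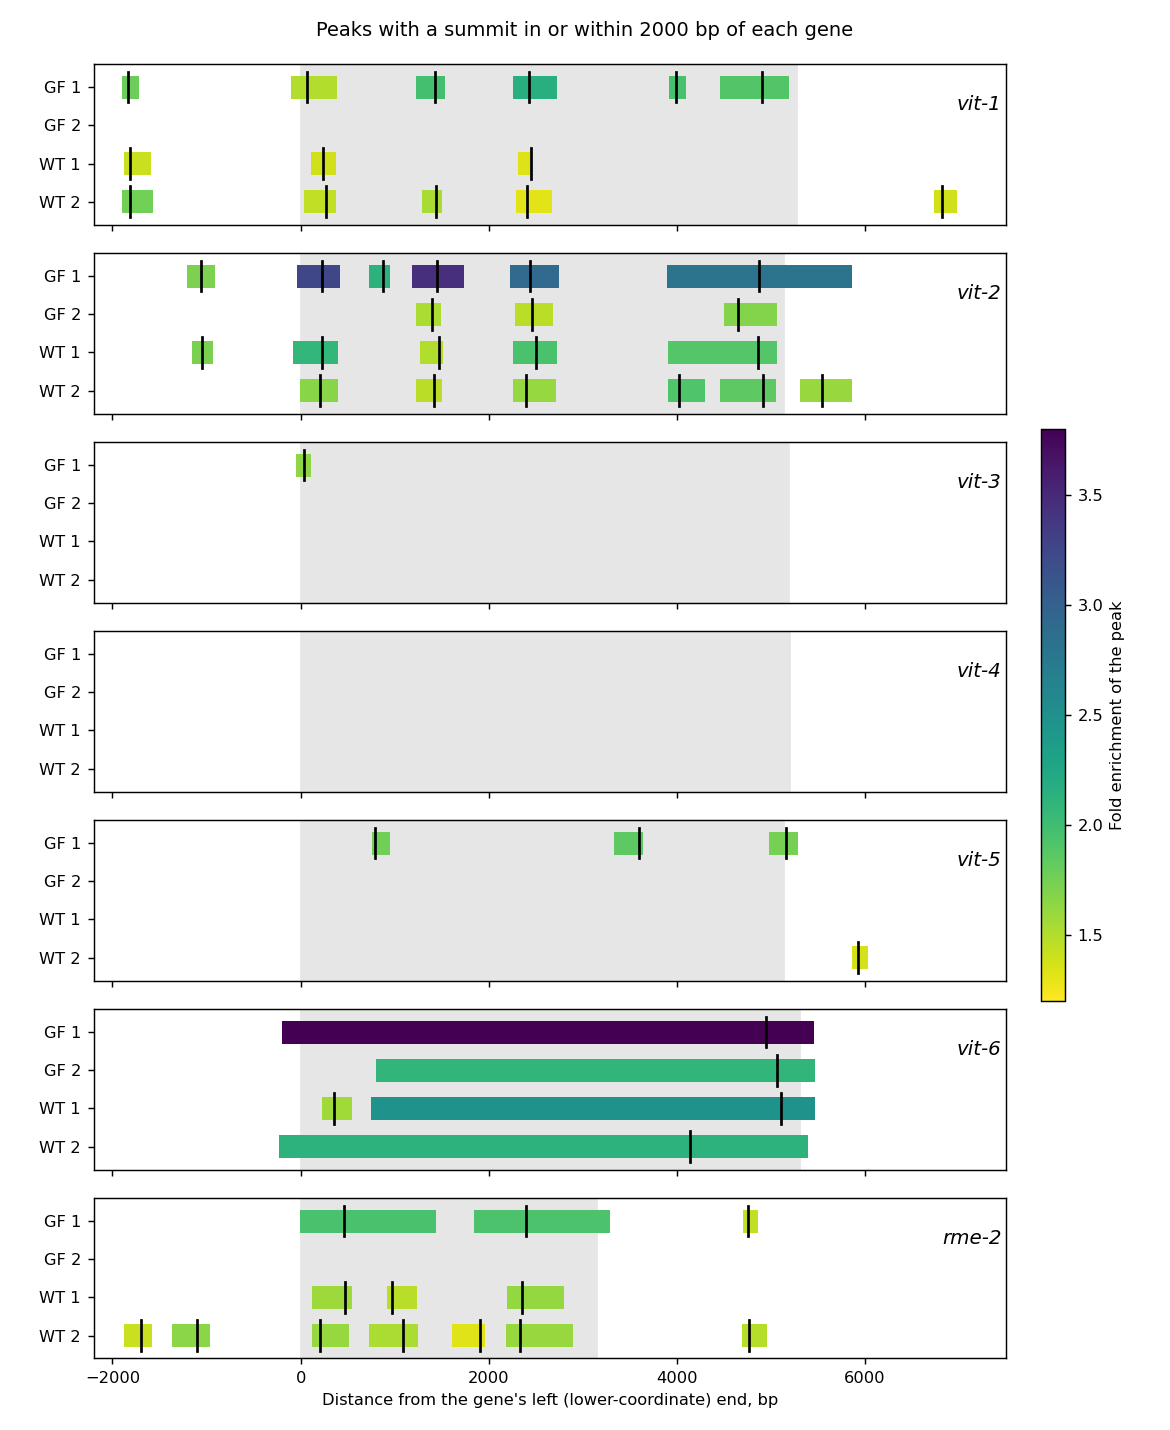
Peaks with a summit in or within 2000 bp of each gene, drawn by distance in bp from the gene's left end, with 1 row for each list. Grey marks the gene, bars the peaks, black ticks the summits and colour the authors' fold enrichment. Each list has a wide bar at vit-6, between 4666 and 5657 bp, WT 1 has a short one of 322 bp beside it, and vit-4 has no bar.

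The 57 summits, counted over the 4 lists together, were unevenly spread over the genes. A place called in several lists counts once for each list. The wide peak at vit-6 gives only 1 summit per list, so a low count there does not mean little cover. There were 20 at vit-2, 14 at vit-1, 13 at rme-2, 5 at vit-6, 4 at vit-5, 1 at vit-3 and 0 at vit-4. Of these, 44 lay inside a gene, 7 beyond its left end and 6 beyond its right end. With each gene cut into 3 parts of equal length, 20 were in the left part, 9 in the middle part and 15 in the right part.

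The peak at vit-6, on chromosome IV, spanned 8260961 to 8266617 in GF 1, 8261958 to 8266623 in GF 2, 8261903 to 8266620 in WT 1 and 8260928 to 8266547 in WT 2. It was 5657 bp wide in GF 1, 4666 bp in GF 2, 4718 bp in WT 1 and 5620 bp in WT 2, where the median peak was 276, 263, 255 and 293 bp wide in the same order. By width it ranked 2nd in GF 1, 1st in GF 2, 1st in WT 1 and 3rd in WT 2. The peaks of GF 1 and WT 2 ran past both ends of the gene, by 196 and 158 bp in GF 1 and by 229 and 88 bp in WT 2. In GF 2 and WT 1 the peak began 801 and 746 bp inside the left end and ran 164 and 161 bp past the right end. WT 1 had a further peak of 322 bp in the stretch left free, with a summit 360 bp from the left end and a fold of 1.57.

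No other gene ranked as high by peak width over the 4 lists. When every protein-coding gene was given the rank of its widest peak in each list and then its worst rank over the 4 lists, vit-6 had a worst rank of 3. The next were D2030.12 and prg-1, a Piwi Argonaute gene, with equal ranks in each list and both at 46. They were followed by ahcy-1, an adenosylhomocysteinase gene, at 73. Without GF 2 the worst rank of vit-6 was again 3, and the next was metr-1, a methionine synthase gene, at 14. This ranking was chosen after the width of the vit-6 peak had been seen, and it describes these lists without a test.

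**Figure D2:**
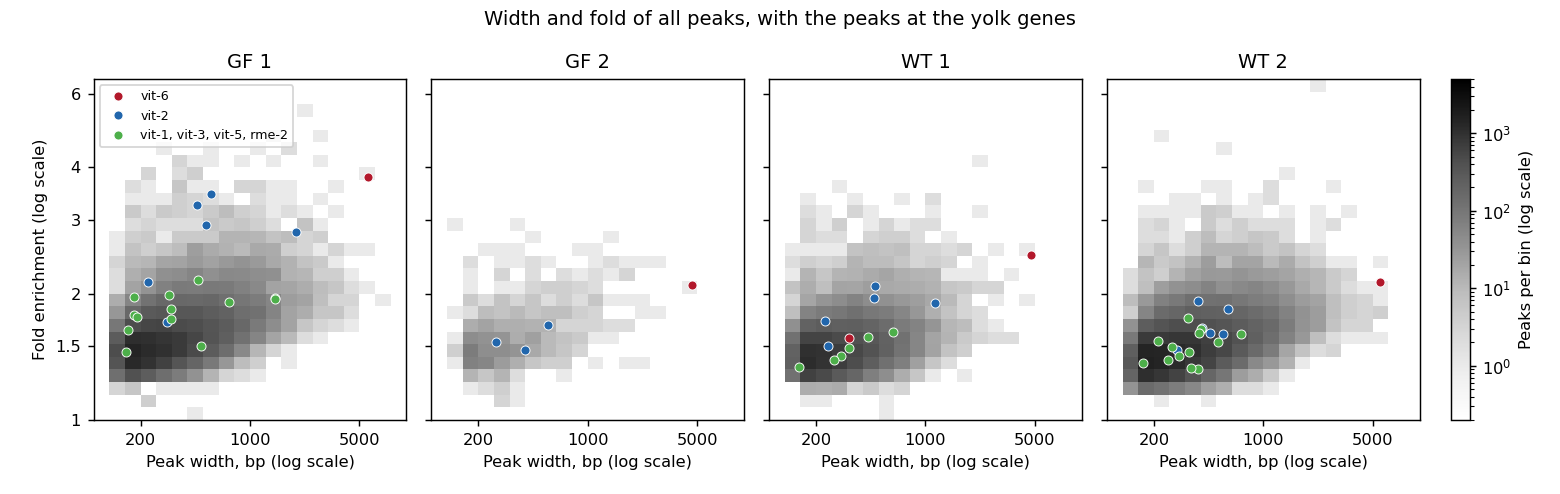
Width in bp against fold enrichment, both on log scales, for all peaks of each list (grey, peaks per bin) and for the peaks at the yolk genes (coloured points). The wide vit-6 peak lies at the right edge of each panel, at folds of 3.79 in GF 1, 2.10 in GF 2, 2.47 in WT 1 and 2.13 in WT 2.

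The fold enrichment of the wide vit-6 peak was 3.79 in GF 1 and 2.10 in GF 2, against 2.47 in WT 1 and 2.13 in WT 2. These are the authors' values per peak and carry no error of their own, and they are set side by side across lists as a description. Ranked by fold within its list, the peak was 24th of 25007 in GF 1, 44th of 905 in GF 2, 98th of 15943 in WT 1 and 595th of 29541 in WT 2. Its deposited -log10 q was 113 in GF 1, 23 in GF 2, 48.8 in WT 1 and 33.8 in WT 2. The values of GF lay on either side of those of WT, with the highest and the lowest both from GF. The summit lay at 93.3% of the gene's length in GF 1, 95.4% in GF 2, 96.3% in WT 1 and 78.0% in WT 2, counted from the left end, so that it was in the right part of the gene in each list.

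Peaks covered 100% of the vit-6 gene body in GF 1, 84.9% in GF 2, 92.0% in WT 1 and 100% in WT 2. Over all protein-coding gene bodies together the covered share was 12.1% in GF 1, 0.404% in GF 2, 6.21% in WT 1 and 14.7% in WT 2. Among the 3084 genes of the same length range, those covered to at least the same share, vit-6 included, numbered 3 in GF 1, 1 in GF 2, 3 in WT 1 and 1 in WT 2. Among all protein-coding genes, whatever their length, they numbered 90 in GF 1, 48 in GF 2, 80 in WT 1 and 96 in WT 2. In GF 2 no protein-coding gene of any length had more bases inside peaks than the 4502 bp of vit-6.

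**Figure D3:**
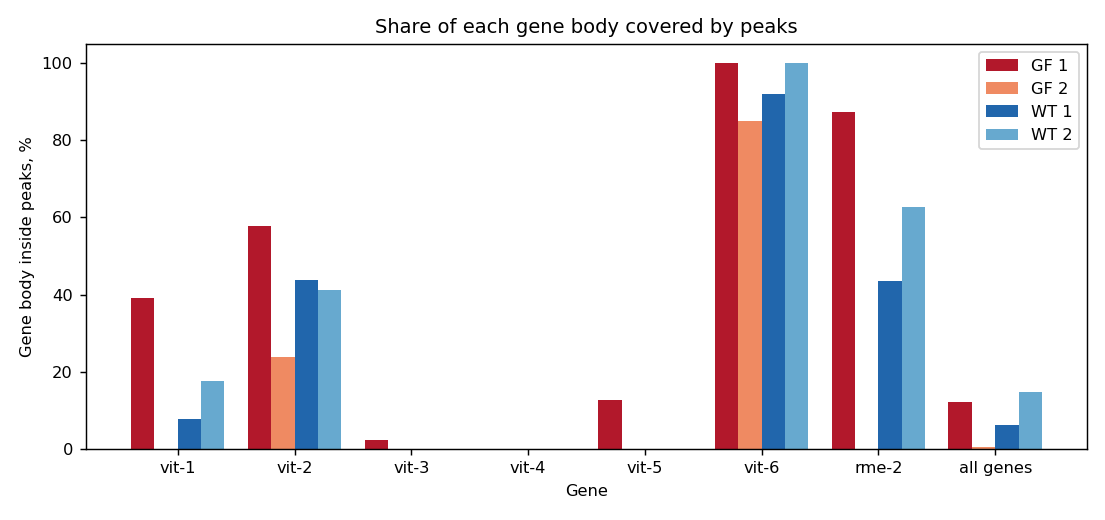
Percentage of each gene body inside peaks in the 4 lists, with the share over all protein-coding genes at the right. Bars for vit-6 reach between 84.9% and 100%, whereas vit-4 has no bar and vit-3 reaches 2.18% in GF 1 alone.

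The gene vit-2, on chromosome X, carried 6 summits in GF 1, 3 in GF 2, 5 in WT 1 and 6 in WT 2. Its strongest peak had a fold of 3.45 in GF 1 and 1.68 in GF 2, against 2.09 in WT 1 and 1.92 in WT 2. GF again gave both the highest and the lowest value. Within the lists these peaks ranked 51st of 25007 in GF 1, 203rd of 905 in GF 2, 343rd of 15943 in WT 1 and 1468th of 29541 in WT 2. Peaks covered 57.8% of the gene body in GF 1, 23.7% in GF 2, 43.8% in WT 1 and 41.2% in WT 2, and the value in GF 2 was 10.9% with a -log10 q of at least 5.

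Peaks lay at similar places along vit-2 in several lists. The shares of all summits that were found again in another list are given further below. Near the left end, a summit lay 229 bp inside the gene in GF 1, 231 bp in WT 1 and 204 bp in WT 2, with folds of 3.25, 2.09 and 1.66 in that order, and GF 2 had no peak there. A further place was 1449 bp from the left end in GF 1, 1395 bp in GF 2, 1468 bp in WT 1 and 1414 bp in WT 2, with folds of 3.45, 1.53, 1.5 and 1.47. All 4 lists had a peak at this place. Another was at 2439 bp in GF 1, 2458 bp in GF 2, 2501 bp in WT 1 and 2396 bp in WT 2, near the middle of the gene, with folds of 2.91, 1.47, 1.95 and 1.61. Here the WT 1 and WT 2 summits were more than 100 bp apart.

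The right part of vit-2 held a peak in each list as well. In GF 1 it spanned 5104926 to 5106887, with a fold of 2.81 and a summit at 94.8% of the gene. In GF 2 it spanned 5105532 to 5106090, with a fold of 1.68 and a summit at 90.6%. In WT 1 it spanned 5104938 to 5106092, with a fold of 1.90 and a summit at 94.7%. WT 2 split the stretch into a peak with a fold of 1.92 and a summit at 78.3%, and another with a fold of 1.84 and a summit at 95.6%. WT 2 also had a summit 405 bp past the right end, inside the neighbouring gene C42D8.9, with a fold of 1.60. GF 1 alone had a summit 873 bp inside the left end, with a fold of 2.13. Outside the gene, 1059 bp from its left end in GF 1 and 1053 bp in WT 1, a smaller peak had folds of 1.71 and 1.72.

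The gene vit-1, also on chromosome X, had 6 summits in GF 1, 0 in GF 2, 3 in WT 1 and 5 in WT 2. Its strongest peak had a fold of 2.16 in GF 1, against 1.42 in WT 1 and 1.75 in WT 2, and GF 2 had no peak. In both WT lists that strongest summit was not in vit-1 but outside its left end, by 1817 bp in WT 1 and 1818 bp in WT 2, inside spp-14, a neighbouring gene of the saposin-like protein family. GF 1 had a summit there too, 1830 bp outside, with a fold of 1.78. Inside vit-1 the folds were between 1.5 and 2.16 over 5 summits in GF 1, 1.34 and 1.39 in WT 1, and 1.32 to 1.54 over 3 summits in WT 2. The gene body was covered to 39.1% in GF 1, 7.84% in WT 1 and 17.5% in WT 2. WT 2 also had a summit 1534 bp past the right end, in set-12, with a fold of 1.39.

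Most summits inside vit-1 lay at about the same distance from the left end as a summit of vit-2 in the same list. This distance differed by no more than 100 bp for 3 of the 5 summits inside vit-1 in GF 1, 2 of 2 in WT 1 and 3 of 3 in WT 2. The other 2 in GF 1, at 65 and 3987 bp, were 164 and 885 bp from the place of the nearest vit-2 summit. In GF 1, summits lay at 1433 bp in vit-1 and 1449 bp in vit-2, at 2424 and 2439 bp, and at 4906 and 4872 bp. In WT 1 they lay at 240 bp in vit-1 and 231 bp in vit-2, and at 2447 and 2501 bp. In WT 2 they lay at 270 and 204 bp, 1435 and 1414 bp, and 2402 and 2396 bp. At these shared places the fold was lower in vit-1 than in vit-2 in GF 1 (1.98 against 3.45, 2.16 against 2.91 and 1.91 against 2.81) and in WT 1 (1.39 against 2.09 and 1.34 against 1.95). In WT 2 it was lower at 2 places (1.45 against 1.66 and 1.32 against 1.61) and higher at the remaining one, with 1.54 in vit-1 and 1.47 in vit-2. Inside vit-2 lay 5 summits in GF 1, 4 in WT 1 and 5 in WT 2. The share of matches to expect from unrelated places was not worked out. The part of reads shared between the copies in this likeness was not tested.

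**Figure D4:**
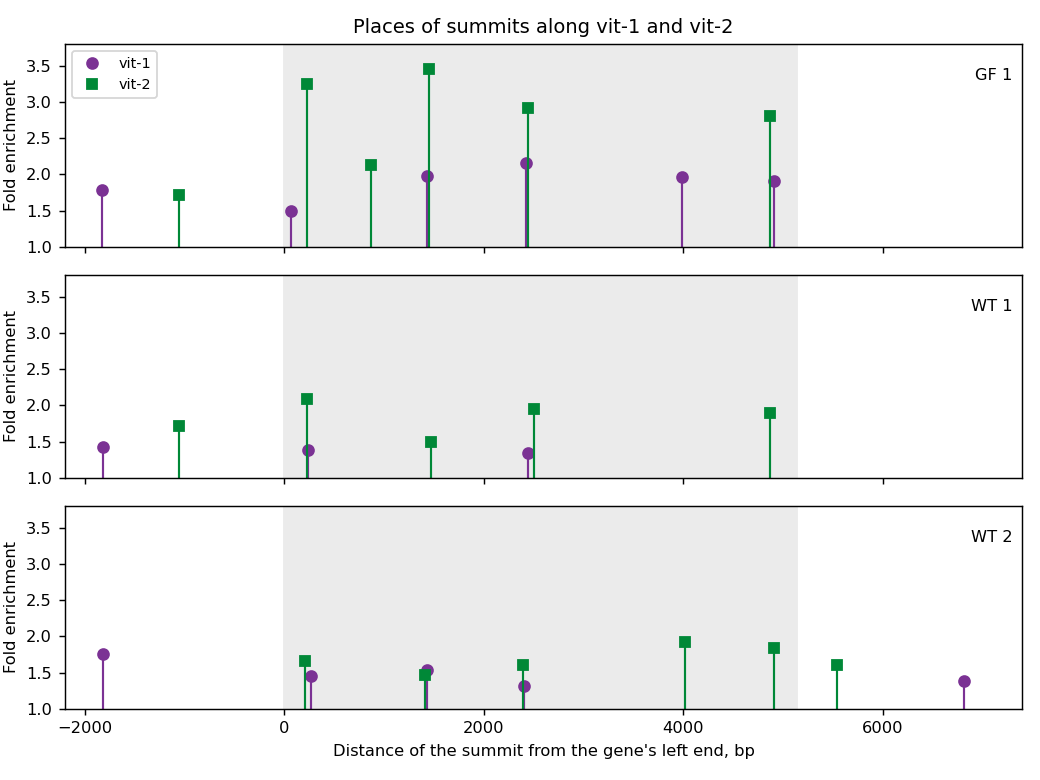
Fold enrichment of each summit against its distance in bp from the left end of vit-1 (circles) and vit-2 (squares) in GF 1, WT 1 and WT 2, with the length of vit-2 shaded. GF 2 is not drawn because it had no summit at vit-1. In GF 1 summits stand side by side at 1433 bp in vit-1 and 1449 bp in vit-2, and at 2424 and 2439 bp.

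The near-identical copies vit-3, vit-4 and vit-5 on chromosome X had few peaks. In GF 1, vit-3 had 1 summit, 32 bp inside its left end, at a peak spanning 3567303 to 3567467 with a fold of 1.64, and the other 3 lists had none. No list had a summit or any overlapping peak at vit-4 or within 2000 bp of it. GF 1 had 3 summits at vit-5, at 15.5% and 70.0% of the gene and 31 bp past its right end, with folds of 1.76, 1.84 and 1.74. WT 2 had 1 summit at vit-5, 789 bp past the right end and inside the neighbouring gene unc-78, with a fold of 1.37. GF 2 and WT 1 had none at vit-5. Coverage of the gene body reached 12.7% at vit-5 and 2.18% at vit-3 in GF 1, and was 0 for these genes in the other lists.

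The receptor gene rme-2, on chromosome IV, had 3 summits in GF 1, 0 in GF 2, 3 in WT 1 and 7 in WT 2. Its strongest peak had a fold of 1.95 in GF 1, against 1.62 in WT 1 and 1.65 in WT 2. It ranked 2139th of 25007 in GF 1, 3052nd of 15943 in WT 1 and 5864th of 29541 in WT 2, and so lower in each of these lists than the strongest peaks of vit-2 and vit-6. No peak at rme-2 reached a fold of 2. Peaks covered 87.3% of the gene body in GF 1, 43.4% in WT 1 and 62.6% in WT 2. Of the 3084 genes of similar length, 11 in GF 1, 41 in WT 1 and 60 in WT 2 were covered to at least the same share, rme-2 included. Among all protein-coding genes the numbers were 291 in GF 1, 791 in WT 1 and 1191 in WT 2.

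In GF 1, 2 wide peaks, 1441 and 1456 bp, took up most of rme-2, from 5470025 to 5471465 and from 5471865 to 5473320, with folds of 1.95 and 1.94. In WT 1 and WT 2 the gene held narrower peaks, 3 in WT 1 and 4 in WT 2. Their folds were 1.48 to 1.62 in WT 1 and 1.33 to 1.61 in WT 2. The WT 2 peak from 5471636 to 5471981 lay mostly in the gap between the GF 1 peaks, and the others lay within the GF 1 peaks. One place was close in all 3 lists, with a summit at 76.1% of the gene in GF 1, 74.7% in WT 1 and 74.0% in WT 2. The strongest WT 2 peak of this window lay outside the gene, 1098 bp from its left end in the pseudogene Y52D5A.1. Past the right end, GF 1 and WT 2 had a summit in the neighbouring gene T11F8.4, at 1608 and 1618 bp from rme-2, with folds of 1.45 and 1.49.

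**Figure D5:**
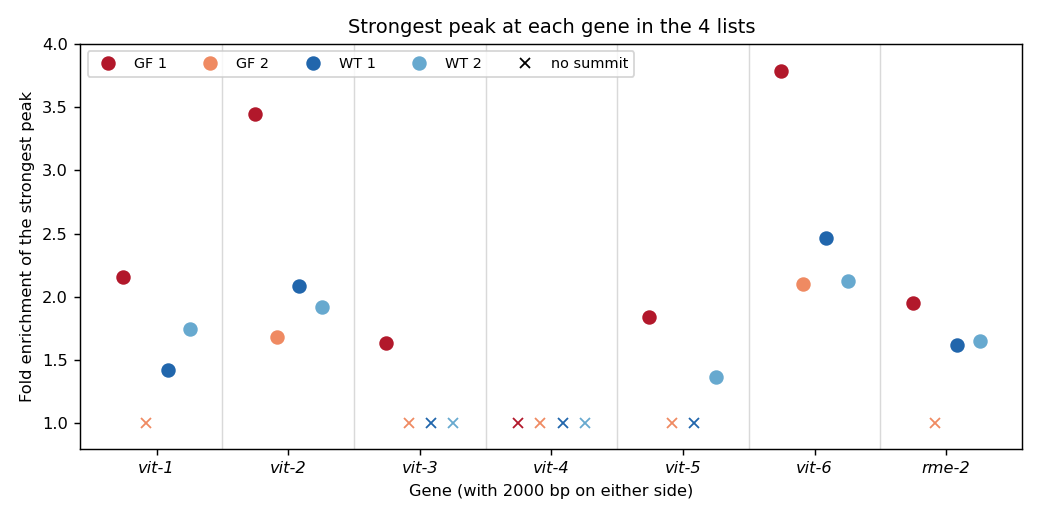
Fold enrichment of the strongest peak at each gene in the 4 lists, with crosses at 1 where a list had no summit. The highest points are vit-6 at 3.79 and vit-2 at 3.45, both in GF 1, and vit-4 has crosses only.

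Between genotypes, the number of yolk genes with a summit averaged 4 ± 2.83 in GF and 4.5 ± 0.707 in WT (SD, n = 2 lists each), a difference of -0.5 that was within the spread between lists (two-sided exact permutation p = 1). The smallest p that 2 lists against 2 allow is 0.333. The difference was 1.5 without GF 2, the short list, and -2.5 without GF 1, so its sign rested on single lists. It was 0 without WT 2 and -1 without WT 1.

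When each list was shortened to its 905 peaks of highest fold, the length of GF 2, vit-6 was present in all 4 lists. The gene vit-2 was present in GF 1, GF 2 and WT 1 and not in WT 2. None of the other 5 yolk genes had a summit at that length. The resulting counts of 2, 2, 2 and 1 of 7 in GF 1, GF 2, WT 1 and WT 2 stand beside 6.07%, 7.06%, 5.26% and 5.51% of all protein-coding genes in the same order, and 6.42%, 7.36%, 6.71% and 5.97% of those in the length range.

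Peaks with a high fold made up a larger share of the yolk gene peaks than of each whole list, though in GF 2 and in WT 2 this rests on 1 peak. A fold over 2 was found for 7 of the 20 summits in GF 1 (35%, against 6.86% of the list), 1 of 4 in GF 2 (25%, against 6.30%), 2 of 13 in WT 1 (15.4%, against 2.84%) and 1 of 20 in WT 2 (5%, against 3.41%). These peaks belonged to vit-6, vit-2 and vit-1 in GF 1, to vit-6 in GF 2, to vit-6 and vit-2 in WT 1, and to vit-6 in WT 2. In GF 1 most were at vit-2, at folds of 2.13 to 3.45. The highest fold in any list was 1.64 at vit-3, 1.84 at vit-5 and 1.95 at rme-2, so the larger share is not a trait of every yolk gene. Neighbouring peaks of a gene are not independent, and no test was made.

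Peaks covered 40.3% of the 7 gene bodies together in GF 1, 16.6% in GF 2, 25.9% in WT 1 and 30.0% in WT 2. Without vit-6 the share was 29.4% in GF 1, 4.18% in GF 2, 13.9% in WT 1 and 17.2% in WT 2, so that WT 2 was then near its share of 14.7% over all protein-coding genes. Counted by number rather than by bases, the 61.8 kb of the genes with their margins held 0.324 summits per kb in GF 1, 0.0647 in GF 2, 0.21 in WT 1 and 0.324 in WT 2. The windows of all protein-coding genes held 0.258, 0.0093, 0.163 and 0.306 summits per kb in the same order. Of the 4 summits in GF 2, 3 were at vit-2 and 1 at vit-6.

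Among the 3 long lists, summits at the yolk genes were found again at shares near those of all summits. Of the 20 in GF 1, 9 had a WT 1 summit within 100 bp (45%, against 36.3% of all GF 1 summits) and 9 a WT 2 summit (45%, against 57.6%). Of the 13 in WT 1, 9 had a GF 1 summit within 100 bp (69.2%, against 57.0%) and 7 a WT 2 summit (53.8%, against 60.9%). Of the 20 in WT 2, 7 had a WT 1 summit (35%, against 32.9%) and 9 a GF 1 summit (45%, against 48.7%). Of the 4 in GF 2, 2 had a GF 1 summit (50%, against 44.0%), 3 a WT 1 summit (75%, against 35.1%) and 2 a WT 2 summit (50%, against 40.3%). A GF 2 summit lay within 100 bp of 2 of the 20 in GF 1 (10%, against 1.59%), 3 of the 13 in WT 1 (23.1%, against 1.99%) and 2 of the 20 in WT 2 (10%, against 1.24%). The matches to GF 2 rest on few summits. The summit of the wide vit-6 peak counts as different between GF 1 and WT 1, although the peaks overlap, because its place within the peak moved by more than 100 bp.

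Other genes of yolk biology were described by lists of known regulators of yolk genes, genes of yolk secretion, uptake and related steps, and low-density lipoprotein receptor relatives. Of the 20 regulators, 19 had a summit in GF 1, 5 in GF 2, 17 in WT 1 and 20 in WT 2, beside the 75.6%, 7.06%, 58.6% and 81.8% of all protein-coding genes given above. Most of these genes are longer than vit-6, the longest yolk gene, up to 46333 bp at daf-2, which by itself widens the window. The strongest fold is a maximum over that window, so it too can be higher at a longer gene. No share or median for genes of like length was worked out for this list. The median of the strongest fold, with no summit entered as 1, was 1.88 in GF 1, 1 in GF 2, 1.59 in WT 1 and 1.70 in WT 2, against 1.56, 1, 1.37 and 1.52 over all protein-coding genes. The 5 regulators in all 4 lists were ceh-60, pqm-1, zfp-3, lin-29 and daf-16. The homeodomain gene ceh-60, an activator of vitellogenin expression, had folds of 1.80 in GF 1, 1.60 in GF 2, 1.62 in WT 1 and 1.64 in WT 2. Peaks covered 0% of the ceh-60 gene body in GF 1, WT 1 and WT 2 and 0.172% in GF 2. Its summits in GF 1, WT 1 and WT 2 therefore lay outside the gene, within 2000 bp of an end. The zinc-finger gene lin-29, a regulator of the passage to adulthood, had the highest folds of the 5 in GF 1, GF 2, WT 1 and WT 2, at 2.53, 2.02, 1.83 and 2.42, and spans 17698 bp, so that its window is much longer than that of a yolk gene. The zinc-finger gene pqm-1 had 1.98, 1.54, 1.68 and 2.4, zfp-3 had 1.97, 1.57, 1.64 and 1.62, and daf-16, the FoxO factor of insulin signalling, had 1.88, 1.47, 1.55 and 1.82, in the same order.

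Under yolk secretion and uptake 22 genes were listed. Of these, 19 had a summit in GF 1, 6 in GF 2, 15 in WT 1 and 21 in WT 2. The shares of all protein-coding genes were 75.6%, 7.06%, 58.6% and 81.8%. The median strongest fold of the 22 was 1.73 in GF 1, 1 in GF 2, 1.42 in WT 1 and 1.58 in WT 2. Over all protein-coding genes it was 1.56, 1, 1.37 and 1.52. The 4 of the 22 in all lists were rme-1, rab-11.1, car-1 and cpl-1. The list was drawn widely, and car-1 and cpl-1 are not themselves genes of secretion or uptake. The cathepsin L gene cpl-1, which acts in yolk breakdown in embryos, had folds of 3.59 in GF 1, 1.95 in GF 2, 2.13 in WT 1 and 2.35 in WT 2. Its gene body, in a gene of 2775 bp, was covered to 100%, 88.9%, 68.8% and 86.9% in that order. Its window held 2, 2, 5 and 3 summits, so the cover need not come from a single wide peak as at vit-6. The germline RNA-binding protein gene car-1 had folds of 2.43, 1.64, 1.79 and 1.85 and was covered to at least 96.1% in each list. The endocytic recycling genes rme-1 (1.60, 1.52, 1.43 and 1.59) and rab-11.1 (1.83, 1.52, 1.62 and 1.73) had lower folds. In WT 1 peaks covered 0% of rme-1, so its summit in that list lay outside the gene.

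All 6 genes of the receptor family, rme-2 included, had a summit in GF 1, WT 1 and WT 2, and none had one in GF 2, where all protein-coding genes had shares of 75.6%, 58.6%, 81.8% and 7.06% in that order. The counts lay above these shares in GF 1, WT 1 and WT 2. With only 6 genes, none in GF 2 was near the background share of 7.06%, and no test was made. The windows of lrp-1 (19968 bp) and lrp-2 (18720 bp) are long, which by itself makes a summit more likely. Their median strongest fold was 1.80 in GF 1, 1.49 in WT 1 and 1.59 in WT 2, against 1.56, 1.37 and 1.52 over all protein-coding genes. The 3 with the highest mean log2 fold over the lists were lrp-2 (1.91 in GF 1, 1.77 in WT 1 and 1.69 in WT 2), rme-2 and lrx-1 (1.71, 1.55 and 1.57). At lrx-1, peaks covered 0% of the gene body in GF 1 and WT 1, so those summits lay outside the gene. The gene lrp-2 spans 18720 bp and also stands among the regulators, since it is known to promote yolk gene expression.

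The genes whose strongest folds were most like the median of the 6 vitellogenin genes over the 4 lists were T15B12.1, with a summed absolute log2 difference of 0.13, Y48G8AR.8 with 0.14, and B0205.12, B0205.8 and mrpl-9, each with 0.15. The median itself was 1.99 in GF 1, 1 in GF 2, 1.19 in WT 1 and 1.55 in WT 2, and no vitellogenin gene lay within 0.5 of it. These 5 genes were picked for their closeness to that median. B0205.12, B0205.8 and mrpl-9 had the same fold in each list, so they may share peaks. In WT 1 and WT 2 the median rests in part on summits in neighbouring genes. These are spp-14 for vit-1 in both lists and unc-78 for vit-5 in WT 2. For the vitellogenin genes themselves the summed differences were 0.55 for vit-1 and vit-5, 1.17 for vit-3, 1.88 for vit-4, 2.66 for vit-2 and 3.50 for vit-6.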

How the data were processed

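Peak lists from chromatin immunoprecipitation with sequencing of GFP-tagged SKN-1 were used. The authors deposited a separate list for each precipitated sample, with no pooling of replicates. The submitters' processing notes name MACS2 2.2.7.1, SAMtools 1.10, BWA 0.7.17 and Trim Galore 0.6.4 and the genome build ce10. Their settings, and the control used by MACS2, are not stated in those notes. For each peak the deposited files give the caller's fold enrichment, which is a ratio to its local background. They also give -log10 of p and of q. The score the authors deposited is a whole number of about 10 times the -log10 q. The lowest deposited -log10 q was 1.3. Folds are the authors', were ranked and filtered within their own list, and are set side by side across lists, or summed on a log2 scale to choose named genes, as descriptions only. Depth per library is unknown.

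Samples were grouped by their titles. Python 3.11.15 with NumPy 2.4.6, pandas 2.3.3 and SciPy 1.17.1 was used, and figures were drawn with matplotlib 3.10.9. Summits were assigned to a gene within 2000 bp of either end, using a RefSeq gene table of assembly WBcel235, whose positions are not printed. The table is not of the lists' build, so summits were also moved by 100 bp either way. Gene sequences, promoters and the SKN-1 motif were not analysed here. Genotypes were compared with a two-sided exact permutation test over the lists, and everything else is a description beside all protein-coding genes. The counting was checked on simulated peaks. All 7 members are named, with pathway genes in all 4 lists (otherwise the 3 strongest), the 5 genes of most similar pattern, and neighbours that hold a member's summit. The genes with the widest peaks were named after their values were seen. The members and lists were chosen with earlier results of these data known.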

Additional observations from a re-analysis of the deposited data

How the results depend on the processing

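The number of yolk genes with a summit stayed within 1.5 times its value in each list with gene bodies alone, a margin of 500 bp, a -log10 q of at least 5, summits moved by 100 bp either way, any overlap of the peak, and near-identical copies taken as 1 unit. The last setting also took vit-1 and vit-2 as 1 unit. It gave 4 in GF 1, 2 in GF 2, 3 in WT 1 and 4 in WT 2. The number moved by more with the strongest 905 peaks, to 2 in GF 1, 2 in WT 1 and 1 in WT 2. With a fold of at least 2 it moved to 3 in GF 1, 1 in GF 2, 2 in WT 1 and 1 in WT 2. Both of these settings leave fewer peaks. The difference between GF and WT was -0.5, but 0 with gene bodies alone and 0.5 with the strongest 905 peaks (two-sided exact permutation p = 1 for both), and it ranged from -2.5 to 1.5 when 1 list was left out. With the replicate number as a block it was -0.5 (exact permutation within pairs p = 1, where 0.5 is the smallest possible), and the labels do not say that a number marks a shared batch. Summits per kb with the strongest 905 peaks were 0.0809 in GF 1, 0.0647 in WT 1 and 0.0162 in WT 2, beside 0.00887, 0.00843 and 0.00858 over all gene windows. With gene bodies alone the value was 0.465 in GF 1, 0.116 in GF 2, 0.32 in WT 1 and 0.378 in WT 2. All gene bodies held 0.298, 0.00994, 0.185 and 0.353 in the same order, so WT 2 was near its background. The counts of summits in the left, middle and right part of the genes and outside them kept within 1.5 times their counts with summits moved by 100 bp. Settings for the covered share were chosen after seeing the data. With a -log10 q of at least 5, the cover of vit-1 was 0 in WT 1 and 10.3% in WT 2 and that of vit-2 in GF 2 was 10.9%, and with the strongest 905 peaks that of vit-6 in WT 1 was 85.9%. With peaks moved by 100 bp to the left, the cover of vit-3 in GF 1 was 0.25%. With the strongest 905 peaks the cover of vit-2 in WT 2 was 0. At that length the cover of vit-1 and of rme-2 was also 0 in GF 1, WT 1 and WT 2. The same held for vit-3 and vit-5 in GF 1. Peak lists without counts cannot separate a missing peak from low depth or, at near-identical copies, from shared reads.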
